A study of Mus musculus with 13 samples.

Results

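The genes described are Col9a1 (gene ID 12839), Col9a2 (12840) and Col9a3 (12841), which encode the 3 chains of type IX collagen. Their members are the Sox9 ChIP-seq peaks whose centre lies in a window around each gene. On the mouse build mm9 these windows are chr1:24100000-24320000 for Col9a1, chr4:120640000-120790000 for Col9a2 and chr2:180280000-180400000 for Col9a3. They held 30 of the 27656 peaks listed for rib and 14 of the 17440 listed for nasal septum, or 44 of 45096 in all. The rib chondrocytes came from wild-type, untreated ICR mice at postnatal day 1, and the nasal septum chondrocytes from wild-type, untreated ICR mice at embryonic day 17.5, so tissue and stage cannot be told apart. Both were released by enzyme digestion, and the same Sox9 antibody served for both. The sources used here do not give how many animals were pooled. There was 1 Sox9 library per tissue, so no replicate check was possible. The series holds 13 libraries, among them 3 inputs and an IgG control, and peaks were read for the Sox9 libraries alone, so no control level stands beside them.

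Type IX collagen is a heterotrimer of an α1, an α2 and an α3 chain. It belongs to the fibril-associated collagens with interrupted triple helices, sits on the surface of the type II and type XI collagen fibrils of cartilage and is covalently bound to them. Mutations in its genes are known from multiple epiphyseal dysplasia and Stickler syndrome in humans. Sox9, an HMG-box transcription factor, is needed for chondrocytes to form and to make cartilage matrix, and it works there with Sox5 and Sox6. The genes are therefore a case in which 3 chains of a single protein are encoded on 3 chromosomes, and the question put to the lists is how Sox9 peaks lie around each.

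The deposited lists give a chromosome, a start and an end for each peak, with no height, fold or significance. Read depth and peak strength are therefore unknown, and the chondrocyte label could not be checked against marker expression. The rib list comes whole and divided into Class I, with 6794 peaks, and Class II, with 20862. The sources used here do not give the rule behind the classes. The place of a peak in its list is given below as a percent of the list's length, counted from the first line, because the lists are not in genomic order. Nor do they give what that order stands for.

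The start regions of 2 of the 3 genes are shown to give their letters, and because Col9a1 has a pair of starts. From the upstream start Col9a1 makes the long α1 chain with its large amino-terminal globular domain, known as NC4, which projects from the fibril. The downstream start gives a short chain without that domain, known from the vitreous of the eye. The sequences are the RefSeq windows of build GRCm38.p6, from 250 bases before to 50 bases after the start, 5′ to 3′ on the plus strand of chromosome 1 for Col9a1 and of chromosome 4 for Col9a2. RefSeq windows were matched for Col9a1 and Col9a2, and for Col9a3 none was used. The Col9a1 windows are called upstream and downstream by their order on the chromosome. Which chain each window belongs to was not read. Capitals mark GGGCGG on either strand, the letters of a GC box.
Col9a1, upstream start: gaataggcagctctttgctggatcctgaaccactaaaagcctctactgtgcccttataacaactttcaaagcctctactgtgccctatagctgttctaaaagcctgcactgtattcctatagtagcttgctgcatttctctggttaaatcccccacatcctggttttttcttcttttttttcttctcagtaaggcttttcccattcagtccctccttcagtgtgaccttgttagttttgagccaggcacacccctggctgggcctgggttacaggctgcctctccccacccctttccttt
Col9a1, downstream start: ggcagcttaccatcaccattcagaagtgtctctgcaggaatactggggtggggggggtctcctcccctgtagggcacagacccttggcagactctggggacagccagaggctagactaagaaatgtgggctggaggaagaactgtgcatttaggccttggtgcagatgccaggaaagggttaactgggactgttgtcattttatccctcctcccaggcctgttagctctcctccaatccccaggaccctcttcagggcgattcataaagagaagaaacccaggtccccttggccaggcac
Col9a2: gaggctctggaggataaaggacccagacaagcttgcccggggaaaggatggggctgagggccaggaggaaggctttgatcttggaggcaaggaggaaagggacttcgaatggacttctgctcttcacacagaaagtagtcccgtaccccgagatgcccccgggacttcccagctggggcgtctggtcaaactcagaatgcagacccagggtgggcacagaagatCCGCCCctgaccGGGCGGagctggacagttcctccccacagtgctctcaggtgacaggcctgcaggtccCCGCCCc

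None of the SOX letter strings searched was matched in these 3 windows, and GC boxes were matched in the Col9a2 window only. Looser forms of the SOX site were not searched. The search took both strands and 7 motifs. ACAAT, a SOX core, stood in 31.0% of the 32851 promoter windows of the table, the SOX core ACAAAG in 18.7%, and AACAAT, which contains ACAAT, in 10.7%. A SOX pair, ACAAT and its reverse complement 4 letters apart, stood in 0.0152% of them with ACAAT last and in 0.0274% with ACAAT first. GGGCGG, the GC box, stood in 35.7% and TATAAA, the TATA box, in 13.6%. The Col9a2 window held GGGCGG 3 times, and its GC content was 61.7%, against 47.3% at the upstream and 55.7% at the downstream Col9a1 start. The median over all windows was 52.7%. Of 18 other cartilage genes, such as Col2a1, Acan and Matn1, 12 had windows, 18 in all, of which 5 held ACAAT, 6 held ACAAAG, 1 held AACAAT, 8 held GGGCGG, 4 held TATAAA and 0 held either pair. A missing match says only that these letters are not in the window. Since the peaks are on mm9 and the windows on GRCm38.p6, whether a peak covers a start was not read.

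Sox9 peaks lay in the windows of all 3 type IX collagen genes in both tissues, and their counts and classes varied from window to window. A peak is named after the gene of its window, and which gene it acts on was not tested. Col9a1 had 17 rib peaks and 5 nasal peaks, or 7.73 and 2.27 per 100 kb of its window. Col9a3 had 8 rib and 5 nasal peaks, or 6.67 and 4.17 per 100 kb. Col9a2 had 5 rib and 4 nasal peaks, or 3.33 and 2.67 per 100 kb. In peaks per 100 kb the rib order was therefore Col9a1, Col9a3, Col9a2, and the nasal order Col9a3, Col9a2, Col9a1. The rib order depended on the window edges: with windows narrowed by 20 kb on each side, Col9a3 had 10.0 and Col9a1 7.78 rib peaks per 100 kb. With 1 library per tissue no error belongs to these counts, and whether neighbours in either order differ was not tested.

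Windows with as many rib peaks were uncommon for Col9a1 and Col9a3 and less so for Col9a2. Each window was set among all windows of its length laid end to end over the 19 autosomes, between the first and the last peak of each. Among 10885 windows of 220 kb, 0.707% held at least the 17 rib peaks of Col9a1, and 11.2% held at least its 5 nasal peaks. Among 19965 windows of 120 kb, 2.67% held at least the 8 rib peaks of Col9a3 and 3.97% at least its 5 nasal peaks. Among 15972 windows of 150 kb, 12.3% held at least the 5 rib peaks of Col9a2 and 9.76% at least its 4 nasal peaks. The type IX windows were laid around genes and the others were not. The type IX windows were also chosen with earlier results of these data known, so these percents are descriptions.

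**Figure D1:**
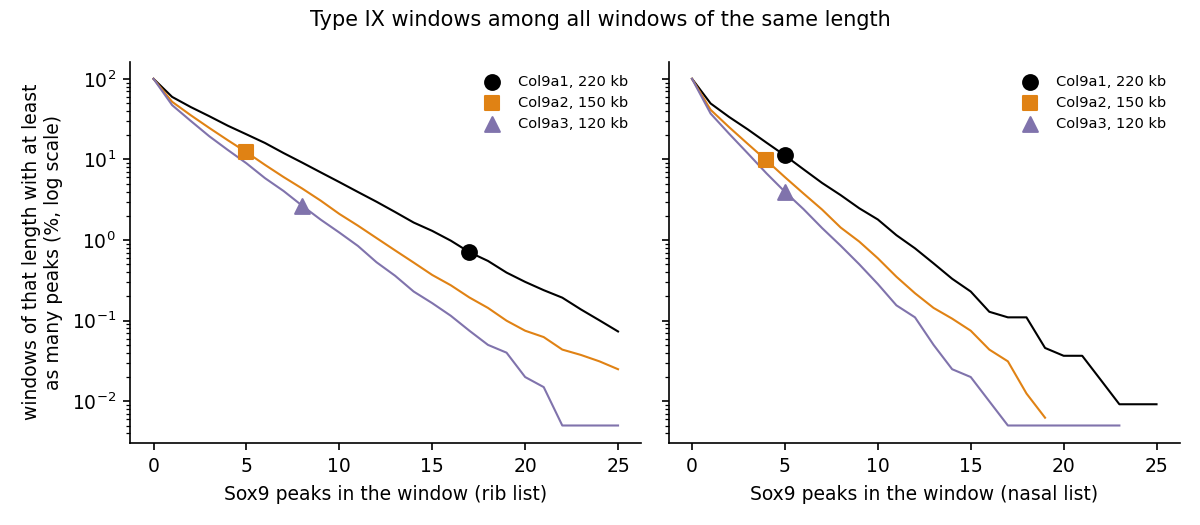
Percent of all autosomal windows of the same length (y, log scale) that hold at least a given number of Sox9 peaks (x), for the rib list on the left and the nasal list on the right. Lines give all windows of 220, 150 and 120 kb and symbols the 3 genes. Col9a1 lies at 17 rib peaks and 0.707%, and at 5 nasal peaks and 11.2%.

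In counts the classes were spread unevenly over the genes, but no gene is shown to differ from the whole rib list. Of the 30 rib peaks, 7 were Class I and 23 Class II, a Class I share of 23.3% (95% exact Clopper-Pearson interval 9.93% to 42.3%), beside 24.6% of the whole rib list. Col9a1 had 1 Class I and 16 Class II peaks, Col9a2 had 3 and 2, and Col9a3 had 3 and 5. The Class I share was 5.88% at Col9a1 (0.149% to 28.7%), 60% at Col9a2 (14.7% to 94.7%) and 37.5% at Col9a3 (8.52% to 75.5%). These intervals overlap, and each holds the 24.6% of the whole rib list. They cover counting error only, and peaks of a locus share their source.

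In each of the 3 windows, the rib peak that stood first in the rib list was overlapped by the nasal peak that stood first in the nasal list. At Col9a1 this was the Class II peak chr1:24237355-24237586, at place 104 of the rib list (0.376%), and the nasal peak chr1:24237361-24237541, at place 512 (2.94%), which lay wholly inside it. At Col9a3 it was the Class II peak chr2:180339612-180339828, at place 315 (1.14%), which shared 141 bp with the nasal peak chr2:180339573-180339752, at place 1181 (6.77%). At Col9a2 it was the Class I peak chr4:120713746-120713853, at place 567 (2.05%), which shared 45 bp with the nasal peak chr4:120713666-120713790, at place 1049 (6.01%). The leading site was thus of Class II at the α1 and α3 genes and of Class I at the α2 gene, and the centres of the rib and nasal peaks lay 19.5, 57.5 and 71.5 bp apart in that order. Among all windows with at least 5 rib and 4 nasal peaks, the first-listed peaks of both lists overlapped in 41.2% of 1431 windows of the Col9a1 length, 43.6% of 1139 of the Col9a2 length and 47.9% of 949 of the Col9a3 length. A match of this kind is therefore frequent in the lists. The limits of 5 and 4 were the smallest counts of the 3 windows. They are not matched to the 17 rib peaks of Col9a1 or the 8 of Col9a3.

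**Figure D2:**
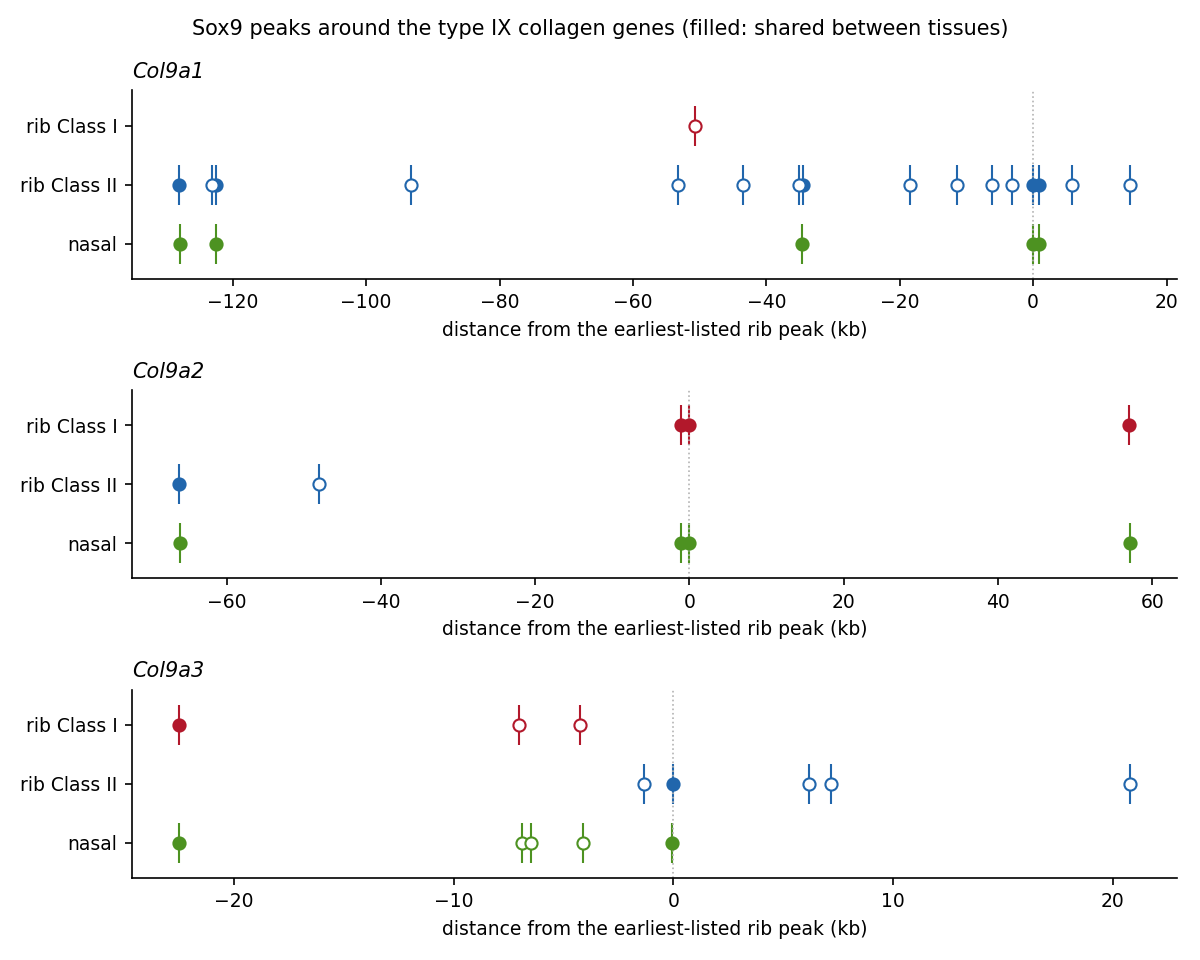
Sox9 peak centres in the windows of Col9a1, Col9a2 and Col9a3, as distance in kb from the rib peak that stands first in the rib list (dotted line), with rib Class I, rib Class II and nasal peaks in rows. Filled symbols share at least 1 bp with a peak of the other tissue. Each dotted line meets a filled nasal symbol, and the Class II row of Col9a1 is the fullest with 16 peaks.

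At Col9a1, the gene of the α1 chain, rib peaks formed 3 chains with gaps of at most 10 kb. The chain chr1:24109440-24115141 held 3 Class II peaks in 5.70 kb, of which nasal peaks overlapped 2. The chain chr1:24184189-24203044 held 5 peaks in 18.9 kb, the Class I peak among them, and 1 was overlapped. The chain chr1:24219024-24252064 held 8 Class II peaks in 33.0 kb, of which 2 were overlapped, among them the leading one. A single peak, chr1:24144133-24144324, stood outside the chains. Each chain thus held at least 1 site shared by both tissues, beside rib peaks that no nasal peak touched.

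The Class I peak of Col9a1, chr1:24186670-24186893, was not among the shared ones. It stood at 11.5% of the rib list, and the nearest nasal peak lay 15848 bp away. The next rib peaks of Col9a1 by place after the leading one were chr1:24114891-24115141, at place 2441, and chr1:24202884-24203044, at place 2829. Both were Class II and both were overlapped, over 251 and 144 bp, by the nasal peaks at places 5264 and 15226. The widest rib peak of the family, 488 bp, was chr1:24238045-24238532, 458 bp after the leading peak, and the nasal peak chr1:24238290-24238441 lay wholly inside it. The 5 overlapped rib peaks of Col9a1 were all Class II, and they reached from 0.376% to 87.7% of the rib list, so sharing was not confined to early places.

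At Col9a2, the gene of the α2 chain, the peaks were few. Of its rib peaks, 4 of 5 (28.4% to 99.5%) shared at least 1 bp with the other list, beside 42.8% of the whole rib list. So did 4 of 4 nasal peaks (39.8% to 100%), beside 68.2% of the whole nasal list. Both intervals hold the whole-list values. At an overlap of at least 50% of each peak, the counts of rib and nasal peaks were 2 of 5 and 2 of 4. Shares of the whole lists under that rule were not computed, so the fall is not shown to be particular to this gene. A pair of Class I peaks, chr4:120712525-120712752 and chr4:120713746-120713853, stood 0.993 kb apart, and a nasal peak overlapped each. The nasal peak that met the first of them, chr4:120712612-120712774, shared 141 bp with it. A further Class I peak, chr4:120770640-120770880, lay 56.8 kb further and shared 110 bp with the nasal peak chr4:120770771-120770958. All 3 Class I peaks of Col9a2 were thus overlapped in the nasal list (29.2% to 100%), beside 68.8% of all Class I peaks.

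The Class II peaks of Col9a2 lay on the other side of that pair. One, chr4:120647621-120647756, at 21.7% of the rib list, shared 92 bp with the nasal peak chr4:120647657-120647748. The other, chr4:120665703-120665788, at 81.7%, was the only rib peak of this window without a nasal partner. No chain of 3 or more rib peaks stood at Col9a2. The nearest rib peaks beyond its window lay 586 kb before its start and 1720 kb after its end, and the nearest nasal peaks 42.3 and 97.8 kb away. In the RefSeq gene table Col9a2 lies between Smap2 and Zmpste24, and which of these genes a peak is nearest to on mm9 was not read.

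At Col9a3, the gene of the α3 chain, most rib peaks stood in a single chain. Of the 5 nasal peaks, 3 lay beside rib peaks without overlap. The overlapped share of the nasal peaks was 40% (5.27% to 85.3%), beside 68.2% of the whole nasal list, which lies inside that interval. How many nasal peaks of the whole list lie beside a rib peak without overlap was not computed. The chain chr2:180332576-180346962 held 6 rib peaks in 14.4 kb, 2 of Class I and 4 of Class II, with 4 nasal peaks in its span. Nasal peaks overlapped only the leading one of the 6. The Class I peak chr2:180332576-180332779 ended 14 bp before the nasal peak chr2:180332794-180332820, and a further nasal peak, chr2:180333050-180333456, started 270 bp from it. The Class I peak chr2:180335481-180335497, only 17 bp wide, ended 79 bp before the nasal peak chr2:180335577-180335650. These peaks count as not shared at 1 bp. Per the labels' protocols, the chromatin had been sheared to fragments between 100 and 600 bp long. Whether fragment length bears on these gaps was not tested.

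The other Class I peak of Col9a3, chr2:180317160-180317314, stood apart from the chain, 15.3 kb before it, and the nasal peak chr2:180317167-180317305 lay wholly inside it with its centre 1 bp away. Both stood at similar places, 25% of the rib list and 24.2% of the nasal list. The earliest rib places of Col9a3 after the leading one were 1150, the peak of 17 bp, and 2482, the Class II peak chr2:180346813-180346962. That Class II peak had no nasal peak within 7060 bp. The nasal peaks next in place after the leading one were those at chr2:180317167-180317305 and chr2:180335577-180335650, at places 4219 and 5310. The window of Col9a3 cut close to other peaks, with a Class II peak 3.35 kb before it. At Col9a1 a Class II peak lay 4.49 kb after the window. In the gene table Col9a1 lies between Fam135a and Col19a1, and Col9a3 between Ogfr and Tcfl5.

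Over the family, a nasal peak met 11 of the 30 rib peaks, or 36.7% (19.9% to 56.1%), beside 42.8% of the whole rib list. Rib peaks overlapped 11 of the 14 nasal peaks, or 78.6% (49.2% to 95.3%), beside 68.2% of the whole nasal list. Both family shares were near those of the whole lists, whose values lay inside the family's intervals. By gene, 5 of 17 rib peaks were overlapped at Col9a1 (29.4%, 10.3% to 56.0%), 4 of 5 at Col9a2 (80%, 28.4% to 99.5%) and 2 of 8 at Col9a3 (25%, 3.19% to 65.1%). Of the nasal peaks, 5 of 5 were overlapped at Col9a1, 4 of 4 at Col9a2 and 2 of 5 at Col9a3. At an overlap of at least 50% of each peak, 3 of 17 rib peaks and 3 of 5 nasal peaks counted at Col9a1, with no whole-list share computed. The 3 nasal peaks without a rib partner were those of the Col9a3 chain, at gaps of 14, 79 and 270 bp.

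**Figure D3:**
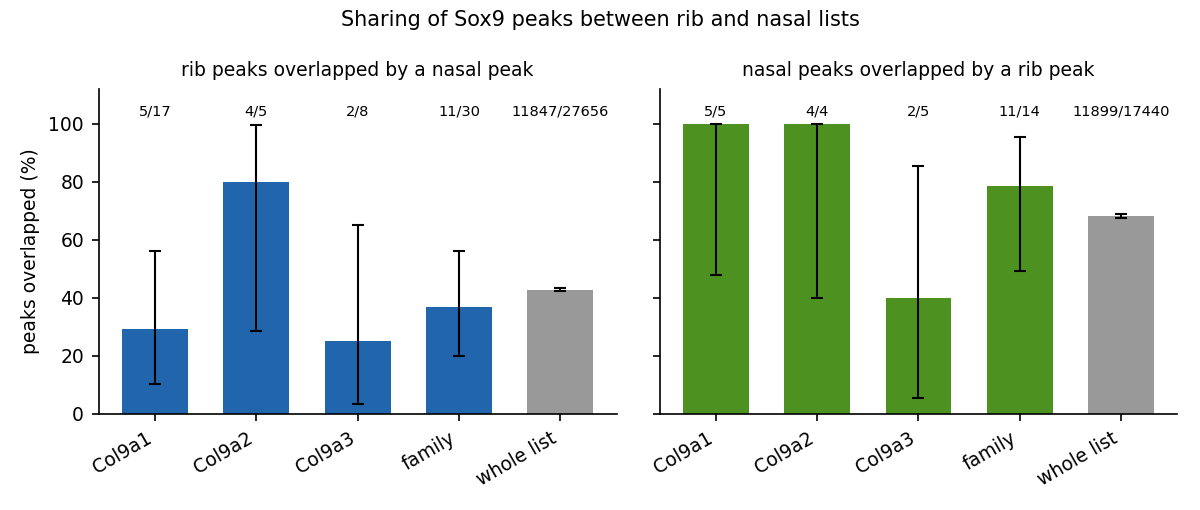
Percent of rib peaks overlapped by a nasal peak (left) and of nasal peaks overlapped by a rib peak (right), by gene, for the family and for the whole lists (grey), with 95% exact intervals and the counts above the bars. The family shares were 36.7% and 78.6%, beside 42.8% and 68.2%.

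Every nasal peak of the family had a rib peak within 1 kb. That was 14 of 14 nasal peaks (76.8% to 100%), beside 78.1% of the whole nasal list, which lies inside that interval. In the other direction a nasal peak lay within 1 kb of 15 of the 30 rib peaks, or 50.0%, beside 49.9% of the whole rib list. The remaining rib peaks, 10 at Col9a1, 1 at Col9a2 and 4 at Col9a3, had no nasal peak within 1 kb. As a share they were near the whole rib list, which is also the longer list. With depth unknown and no input analysed, a site missing from the nasal list is not shown to be free of Sox9.

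By class, 4 of the family's 7 Class I peaks met a nasal peak, or 57.1% (18.4% to 90.1%), beside 68.8% of all Class I peaks. So did 7 of its 23 Class II peaks, or 30.4% (13.2% to 52.9%), beside 34.4% of all Class II peaks. Within 1 kb of a nasal peak stood 6 of the 7 Class I peaks, with 81.9% over all of Class I, and 9 of the 23 Class II peaks, with 39.5% over all of Class II. The 1 Class I peak without a nasal peak within 1 kb was that of Col9a1.

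Most rib peaks of these genes stood in the first 50% of the rib list, most clearly those of Class I. Of the 30, 22 stood in the first 50% of it and 7 in the first 10%, and their median place was at 31.7% of the list. All 7 Class I peaks of the family stood in the first 50%, between 2.05% and 45.7% with a median of 11.5%, where 37.1% of all Class I peaks stood. The median place of Class I as a whole was at 61.4%. Of the 23 Class II peaks, 15 stood in the first 50%, beside 54.2% of all Class II peaks, and they reached from 0.376% to 94.8% of the list. Of the 14 nasal peaks, 8 stood in the first 50% of the nasal list. Peaks of a locus share their source, and no interval was computed for these counts.

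Among the early-listed rib peaks, overlap with the nasal list was below that of all early-listed rib peaks, within wide intervals. For early-listed nasal peaks the share overlapped by a rib peak was near that of all early-listed nasal peaks. Of the 22 rib peaks in the first 50% of the list, 9 met a nasal peak, or 40.9% (20.7% to 63.6%), beside 56.3% of all peaks there, and at Col9a1 3 of 12 did. In the remainder of the list, 2 of the family's 8 did, beside 29.3% of all peaks there. Rib peaks overlapped 7 of the 8 nasal peaks in the first 50% of the nasal list, or 87.5%, beside 82.4% of all nasal peaks there. The whole-list values lay inside the family's intervals, so no difference from the lists is shown.

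**Figure D4:**
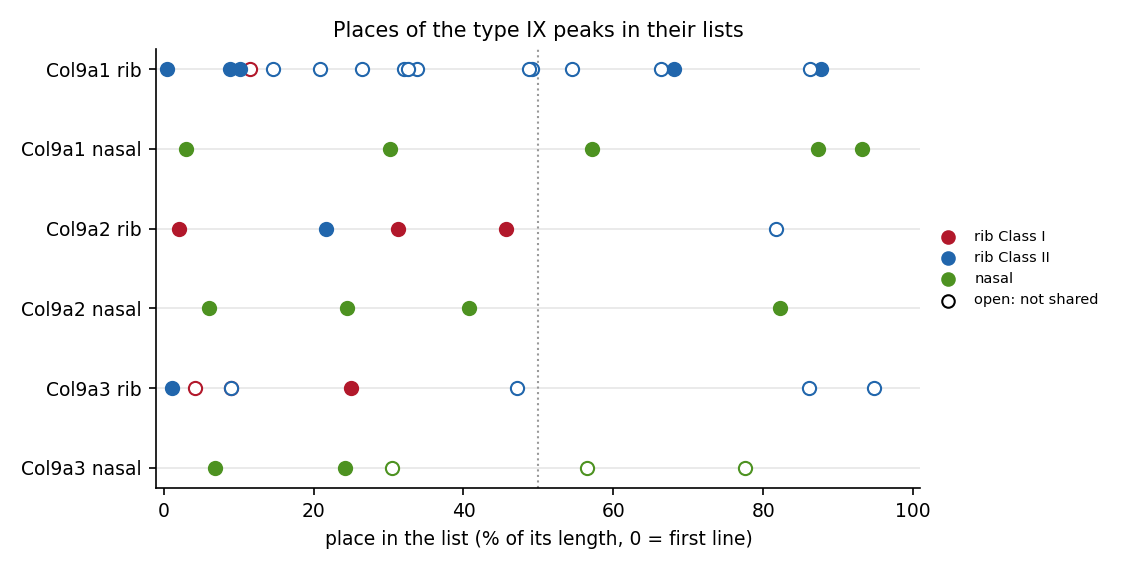
Place of each rib and nasal peak in its own list (x, percent of the list's length, 0 for the first line), by gene and tissue, with the class in colour and open symbols for peaks that share no base with the other tissue. The dotted line marks 50%. The leading rib peaks lie at 0.376%, 2.05% and 1.14%, and all are filled. A Class I and a Class II peak of Col9a3 lie on top of each other at 9.00% and 8.97%.

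The rib peaks of the family lay close to one another. Another rib peak stood within 10 kb of 24 of the 30, or 80% (61.4% to 92.3%), beside 52.9% of the whole rib list, and within 1 kb of 10, or 33.3% (17.3% to 52.8%), beside 18.5%. By gene the 10 kb count was 16 of 17 at Col9a1, 2 of 5 at Col9a2 and 6 of 8 at Col9a3. Another nasal peak stood within 10 kb of 10 of the 14 nasal peaks, beside 44.9% of the nasal list. Neighbouring peaks count for each other, so these intervals are too narrow, and a window with many peaks raises the share by itself. Peak widths were near those of the lists, with a median of 187 bp for the rib peaks and 171.5 bp for the nasal peaks, beside 180 and 182 bp in the whole lists.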

How the data were processed

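Chromatin of rib and nasal septum chondrocytes was fixed with 1% formaldehyde for 10 minutes, with 20000000 cells and 9 μg of antibody per immunoprecipitation and 18 PCR cycles, per the labels' protocols. The authors deposited 4 peak lists with positions alone, on mm9 per the submitters' processing notes. The sources used here do not give the aligner, peak caller, control library or class definition, and the file names carry FDR with the number 1, without a unit. Each list stems from 1 library.

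Starts had 1 added to be 1-based. Every rib peak was in a single class list, with 0 in neither or both, and the last Class I line, written with spaces, was read like the others. A peak belonged to a gene when its centre lay in the window. Overlap meant at least 1 shared bp, and bedtools 2.31.1 gave another call for 0 peaks. Planted overlaps in simulated lists were all found. Shares have 95% exact Clopper-Pearson intervals, which cover counting error only. No test between groups was run. Peaks were named by rule: Class I peaks, rib chains of at least 3, the 3 first-listed peaks per list and window, and the widest rib peak; remaining peaks were named after their values were seen. The genes, windows and lists were chosen with earlier results of these data known. The comparison of protein chains that was planned was not run. Software was scipy 1.17.1, numpy 2.4.6, pandas 2.3.3 and matplotlib 3.10.9 under Python 3.11.15. Alternatives were other overlap rules, window edges, list lengths, merged peaks and neighbour distances.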

Additional observations from a re-analysis of the deposited data

How the results depend on the processing

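No paired analysis was possible because each tissue has 1 Sox9 library and the result comes from no test. Of 30 family values recomputed, 24 stayed within their interval or within 1.5 times the count. Using the first 50% of each list by place left 8 nasal and 15 Class II peaks, since fewer lines were read, while all 7 Class I peaks remained. A gap of up to 1 kb raised the overlapped nasal peaks to 100%. Neighbours within 1, 25 and 50 kb gave 33.3%, 93.3% and 96.7% of rib peaks. At 1 kb the whole rib list gave 18.5%. At 25 and 50 kb no whole-list share was computed, so those values are not shown to be particular to these genes. Rib overlap ranged from 23.3%, at an overlap of 50% or more of each peak, to 50.0% with gaps of up to 1 kb. For the 50% rule no whole-list share was computed. Of 90 single-gene values, 74 likewise stayed. With windows widened by 50 kb, Col9a3 had 5 Class I peaks. Depth is unknown, so no limit of detection can be given.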

Other observations

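Among the 77 autosomal windows of 220 kb with at least the 17 rib peaks of Col9a1, the median number of nasal peaks was 12 and the quartiles were 8 and 13. The Col9a1 window held 5 nasal peaks, and 3 of the 77 windows held 5 or fewer. For windows with at least the 8 rib peaks of Col9a3 the median was 5 nasal peaks, as many as Col9a3 held, and for windows with at least the 5 rib peaks of Col9a2 it was 4, again as many. This comparison was chosen after the values were seen, and rib depth and nasal depth are unknown.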
